A study of Mus musculus with 8 samples.

Results

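C-type lectin receptors of myeloid cells were examined in neutrophils taken from mouse lungs with and without pneumonia. The genes were Clec4e, Clec4d, Clec4n, Clec4a2, Clec7a, Clec5a, Clec12a and Clec2d, chosen by name as C-type lectin receptor genes, with no threshold on their expression. Rows of the deposited expression table were matched to these names through their RefSeq identifiers. A row was found for 7 of the 8 genes, out of 19836 gene symbols and 24625 rows in all. None of the rows carried an identifier that the RefSeq table pairs with Clec7a, which encodes the beta-glucan receptor Dectin-1, so its expression is not analysed here.

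Data were collected on 8 samples of lung neutrophils from wild type mice aged 6 to 12 weeks. In the PBS group (n = 4) the mice received phosphate-buffered saline, and in the SP group (n = 4) they received a suspension of Streptococcus pneumoniae, instilled through the trachea so as to reach the left lung, with a volume of 2.3 µl for each g the mouse weighed. Neutrophils were drawn 24 h later from whole-lung cell suspensions with anti-Ly6G and magnetic beads, and total RNA of each sample was hybridised to 1 Affymetrix Mouse Gene 1.1 ST array. The labels give no other treatment or allele, and both groups were handled with the same antibody and beads. The study gives a narrower age range than the labels, and each sample is described in the study as coming from a mouse.

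C-type lectin receptors sit on the surface of neutrophils, monocytes, macrophages and dendritic cells, where they bind sugars, glycolipids and molecules released by dying cells. Activating members such as Mincle (Clec4e), MCL (Clec4d) and Dectin-2 (Clec4n) pair with the Fc receptor gamma chain, and MDL-1 (Clec5a) pairs with DAP12. Both adaptors recruit the kinase Syk, which signals through CARD9, BCL10 and MALT1 to NF-kB and to cytokine genes. DCIR (Clec4a2) and MICL (Clec12a) instead carry an inhibitory motif in the cytoplasmic tail that recruits phosphatases. Clr-b (Clec2d) is of another kind, a surface ligand that is read by the inhibitory receptor NKR-P1B (Klrb1b) of natural killer cells.

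Promoter sequence is shown first for 4 of these genes, because they are myeloid genes that differed in their response and because PU.1, a transcription factor that acts throughout myeloid development, binds sites with the core GAGGAA. Each line gives the 120 bases before the transcript start from RefSeq (GRCm38.p6), 5′ to 3′ on the gene's own strand, with the core in capitals as GAGGAA, or as TTCCTC where it lies on the opposite strand. Clec5a lies at chr6:40585806-40585925 on the minus strand, Clec4e at chr6:123289872-123289991 on the minus strand, Clec12a at chr6:129350124-129350243 on the plus strand and Clec4a2 at chr6:123122570-123122689 on the plus strand.
Clec5a: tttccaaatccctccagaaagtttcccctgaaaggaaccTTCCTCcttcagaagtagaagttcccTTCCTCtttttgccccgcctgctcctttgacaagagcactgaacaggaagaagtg
Clec4e: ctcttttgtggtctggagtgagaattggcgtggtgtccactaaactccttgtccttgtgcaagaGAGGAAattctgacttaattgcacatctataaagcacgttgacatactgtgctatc
Clec12a: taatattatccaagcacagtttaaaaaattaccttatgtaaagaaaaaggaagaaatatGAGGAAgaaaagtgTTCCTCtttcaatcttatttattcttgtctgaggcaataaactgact
Clec4a2: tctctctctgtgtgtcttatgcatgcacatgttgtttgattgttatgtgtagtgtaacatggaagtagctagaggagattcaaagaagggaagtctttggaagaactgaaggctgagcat

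The core began 81 and 55 bases before the start in Clec5a, 56 bases before it in Clec4e, and 61 and 47 bases before it in Clec12a. In the full 250 bases before the start, searched on both strands, it was present in 5 of the 7 receptor promoters available (Clec4e, Clec4d, Clec7a, Clec5a and Clec12a), against 23.1% of 27025 promoters of the same length. Clec5a and Clec4d, whose expression passed the test described below, held the core, and Clec4a2, whose expression did not, held none. Clec4e and Clec12a held the core but did not pass, and Clec2d passed but held none. No promoter was available for Clec4n, and Clec7a had no expression row. Whether the core goes with the response was not tested. A C/EBP-like motif (TTGCNNAA) was found in Clec4e, 66 bases before the start on the opposite strand, and in Clec12a, 140 bases before it, against 9.55% of all promoters. Single promoters held an AP-1 motif (TGANTCA, Clec12a, 6.87% of all), a STAT motif (TTCNNNGAA, Clec4a2, 7.18%) and an interferon-stimulated response element (Clec2d, 3.04%). No receptor promoter held the NF-kB motif searched, which stood in 4.6% of all promoters. The matches did not overlap one another, apart from motifs that read alike on both strands, and letters of this kind describe the sequence only.

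Expression is given as the deposited log2 intensity, so a difference of 1 is a 2-fold change. Each gene was tested in limma with Benjamini-Hochberg adjustment over all 24625 rows. A gene was said to pass at an adjusted p of at most 0.05, and was called when it also differed by at least 2-fold, the thresholds used in the study. PBS replicate 2 read low for 6 of the 7 receptors, so receptor results that turn on it are given with and without it. Group means were higher in SP for 6 of the 7 receptors, with a median difference of 0.90 against 0.10 over all rows. Of the 7, 2 were called, both higher in SP (Clec4n and Clec5a), while 17.6% of all rows were called, 6.37% higher and 11.3% lower in SP. A further 2 passed at less than 2-fold, Clec4d and Clec2d. The 4 that passed were higher in SP, where 44.1% of all rows passed and 21.5% passed and were higher. The groups did not overlap for 5 receptors, against 49.0% of all rows. The samples are bulk RNA, so more receptor RNA per neutrophil and more cells of another kind that carries the receptor cannot be told apart. Nor can a smaller share of RNA from other cells in SP, where epithelial, B cell and endothelial markers were lower.

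**Figure D1:**
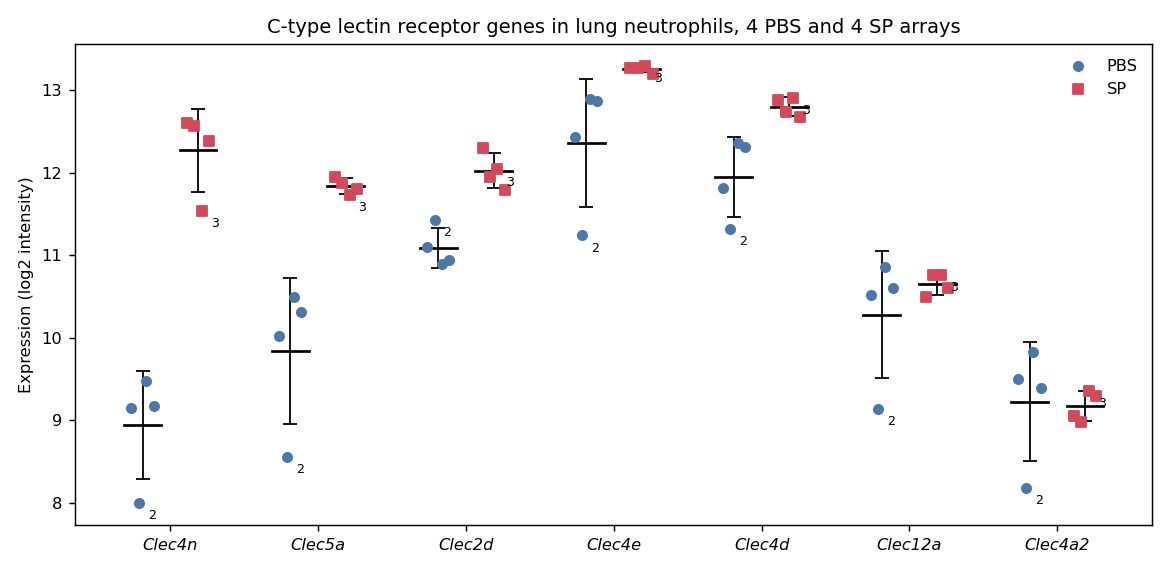
Expression of the 7 receptor genes (y axis, log2 intensity) on each PBS array (blue circles) and SP array (red squares), with the group mean (line) and SD (bars, n = 4), and replicate 2 of PBS and replicate 3 of SP numbered. Clec4n and Clec5a separate most widely, Clec12a and Clec4a2 overlap, and PBS replicate 2 is the lowest PBS array for every gene but Clec2d.

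Clec4n, which encodes Dectin-2, a receptor for mannose-rich glycans of fungi and some bacteria, had the largest difference of the receptors (row NM_001190320). Its expression on the PBS arrays was 9.15, 8.00, 9.48 and 9.17, and on the SP arrays 12.60, 12.57, 11.54 and 12.38. Even the lowest SP array stood above the highest PBS array by more than either group's SD. The mean rose from 8.95 ± 0.65 (SD, n = 4) to 12.27 ± 0.50 (SD, n = 4), a difference of 3.32 (SE 0.35, 95% interval 2.51 to 4.13), or 9.98-fold (5.69 to 17.5), with an adjusted p of 0.000174 in limma.

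Clec4d and Clec4e encode MCL and Mincle, which can pair with each other on the cell surface and which bind the mycobacterial cord factor. For Clec4d (NM_001163161) the PBS arrays read 11.81, 11.32, 12.36 and 12.31 and the SP arrays 12.88, 12.73, 12.91 and 12.68. The groups did not overlap, and the mean rose from 11.95 ± 0.49 to 12.80 ± 0.12 (SD, n = 4 each). The difference was 0.85 (SE 0.22, 95% interval 0.34 to 1.35), or 1.80-fold, with an adjusted p of 0.015 in limma.

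For Clec4e (NM_019948), the PBS arrays read 12.43, 11.24, 12.89 and 12.87 and the SP arrays 13.27, 13.27, 13.29 and 13.20. The PBS arrays were spread over more than a log2 unit, while the SP arrays lay close together, near the upper end of the scale, where the highest row of each array lay between 13.95 and 14.45. Means were 12.36 ± 0.77 in PBS and 13.26 ± 0.04 in SP (SD, n = 4 each), a difference of 0.90 (SE 0.33, 95% interval 0.14 to 1.66), or 1.87-fold (1.10 to 3.17). The adjusted p in limma was 0.0565, so Clec4e did not pass although its groups did not overlap. Without PBS replicate 2 its difference was smaller, 0.53, and passed, with an adjusted p of 0.0133 in limma. Without PBS replicate 3 or 4 it was 1.08 or 1.07, with adjusted p of 0.0414 and 0.0474 in limma.

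Clec5a, the DAP12-coupled receptor MDL-1, was the other receptor called (NM_001038604). PBS arrays read 10.02, 8.56, 10.49 and 10.31, and SP arrays 11.95, 11.87, 11.73 and 11.80. Here too the groups were apart, and the SP arrays varied less than the PBS arrays. The mean rose from 9.84 ± 0.88 to 11.84 ± 0.09 (SD, n = 4 each), a difference of 1.99 (SE 0.38, 95% interval 1.12 to 2.87), or 3.98-fold (2.18 to 7.29), with an adjusted p of 0.00354 in limma.

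Neither inhibitory receptor passed the test. Clec4a2, which encodes DCIR (NM_001170332), read 9.50, 8.18, 9.83 and 9.39 on the PBS arrays and 9.06, 8.98, 9.36 and 9.30 on the SP arrays. All SP values fell inside the PBS range. The difference was -0.05 (SE 0.32, 95% interval -0.79 to 0.69, adjusted p 0.897 in limma), an interval that runs from 0.578 to 1.61 times the PBS level. Clec4a2 was 0.23 higher in SP once every array was centred on its median. Without PBS replicate 2 the difference was -0.40 (adjusted p 0.0634 in limma). It was 0.46 lower, and passed, without PBS replicate 2 and SP replicate 3 together (-0.46, adjusted p 0.0371 in limma), a setting chosen after the values were seen.

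Clec12a, which encodes MICL, a receptor for uric acid crystals (NM_177686), read 10.52, 9.14, 10.86 and 10.60 on the PBS arrays and 10.49, 10.76, 10.76 and 10.60 on the SP arrays. The groups overlapped, with PBS replicate 2 alone below all others. Its difference was 0.37 (SE 0.34, 95% interval -0.40 to 1.14, adjusted p 0.369 in limma), an interval of 0.757 to 2.21 times the PBS level. Without PBS replicate 2 the difference was -0.0081 (adjusted p 0.957 in limma).

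Clec2d, the ligand Clr-b (NM_053109), read 11.10, 11.43, 10.89 and 10.94 on the PBS arrays and 12.30, 11.95, 12.04 and 11.79 on the SP arrays. The groups did not overlap, and both were narrow. Its mean rose from 11.09 ± 0.24 to 12.02 ± 0.21 (SD, n = 4 each), a difference of 0.93 (SE 0.15, 95% interval 0.59 to 1.27), or 1.91-fold (1.51 to 2.42), with an adjusted p of 0.00141 in limma. With every array centred on its median, 5 receptors were called at 2-fold in place of 2, since Clec4d, Clec4e and Clec2d then exceeded 1 log2 unit and Clec4e also passed (adjusted p 0.012 in limma).

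**Figure D2:**
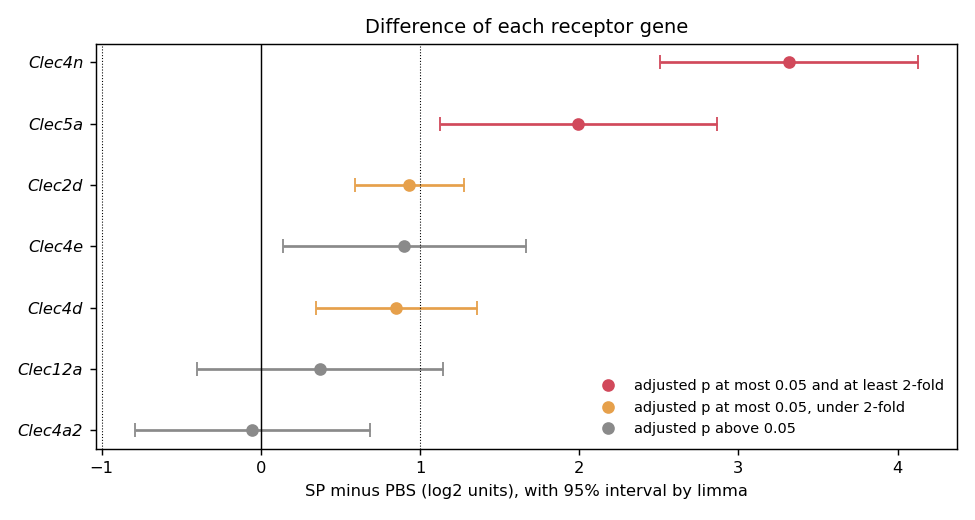
SP minus PBS difference of each receptor gene (x axis, log2 units) with its 95% interval from limma, coloured by whether it passed and reached 2-fold. In order of the difference Clec4n led at 3.32 and Clec5a followed at 1.99, while Clec2d, Clec4e and Clec4d lay between 0.85 and 0.93 with overlapping intervals, and the intervals of Clec12a and Clec4a2 crossed 0.

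In the order of these differences, Clec2d (0.93), Clec4e (0.90) and Clec4d (0.85) were closer together than the SE of any of them. PBS replicate 2 stood apart for most of the receptors. Compared with the mean of the other 3 PBS arrays it was lower by 1.72 log2 units for Clec5a, 1.51 for Clec12a, 1.48 for Clec4e, 1.40 for Clec4a2, 1.27 for Clec4n and 0.84 for Clec4d, and higher by 0.45 for Clec2d. Over all rows the median of this deviation was -0.016. Without that array Clec4n differed by 3.0, Clec5a by 1.56, Clec4d by 0.64 and Clec2d by 1.05, and these 4 receptors still passed, with Clec2d then called at 2-fold. The same array was also low for several genes that act behind the receptors, by 1.43 for Card9, 1.21 for Bcl10, 1.11 for the adaptor gene Hcst and 0.80 for Syk, and by 0.41 and 0.40 for the adaptors Fcer1g and Tyrobp. SP replicate 3 was low for Clec4n (-0.98) and next lowest, among the receptors, for Clec5a (-0.145).

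**Figure D3:**
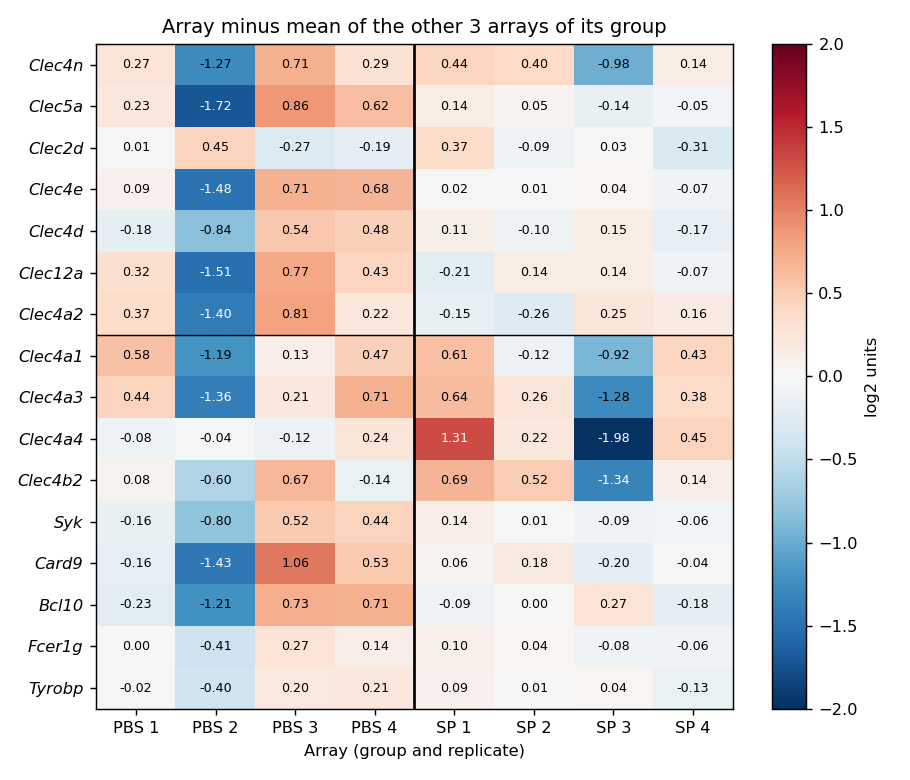
Each cell gives 1 array's log2 intensity minus the mean of the other 3 arrays of its group, for the 7 receptor genes (above the line) and 9 related genes (below), with arrays in columns and the colour scale in log2 units. PBS replicate 2 is blue for 6 of the 7 receptors, and SP replicate 3 is blue for Clec4n, Clec4a1, Clec4a3, Clec4a4 and Clec4b2.

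Receptor profiles were compared after each was centred on its mean over the 8 arrays, as the root mean square difference in log2 units, which describes likeness and is no test. Clec4e and Clec4d were the most alike pair of receptors (0.207), followed by Clec4a2 and Clec12a (0.255), and Clec4n and Clec4a2 were the least alike (1.73). Of all named genes, those with profiles most like Clec4d were Pdlim7 (0.067), Syk (0.082) and the phosphatase gene Ptpn1 (0.082). Nearest to Clec4e were Rnf149 (0.097), Tnfaip2 (0.11) and Plk3 (0.111), and nearest to Clec5a were Rab32 (0.107), Epsti1 (0.132) and the cytokine subunit gene Ebi3 (0.134). For Clec4n the nearest were Gdf15 at 0.184, Scimp at 0.208 and Csf1, the macrophage growth factor, at 0.247. Genes nearest to Clec2d were Acsl5 (0.095), Kansl3 (0.101) and Mir674 (0.113). For Clec4a2 they were Pram1 (0.149), Rap1gap2 (0.162) and Sh3kbp1 (0.178), and for Clec12a they were Lilra6 (0.149), Slc41a3 (0.152) and Asprv1 (0.154).

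All 8 receptor genes are on chromosome 6 in the RefSeq table (GRCm38.p6). Clec4a2, Clec4n, Clec4d and Clec4e belong to a run of 9 neighbouring lectin genes, in the order Clec4a1, Clec4a3, Clec4a4, Clec4b1, Clec4a2, Clec4b2, Clec4n, Clec4d and Clec4e. Clec2d neighbours Cd69, and Clec7a lies beside Olr1. Differences varied along the run. Clec4b2, between Clec4a2 and Clec4n, was 2.54 higher in SP (SE 0.34, adjusted p 0.000598 in limma), next to a difference of -0.05 in Clec4a2. Clec4a1 was higher by 1.74 (adjusted p 0.00429 in limma) and Clec4a4 by 1.78 (adjusted p 0.0136 in limma). Clec4a4 was low on the PBS arrays (5.07 to 5.34) and on SP replicate 3 (5.46), against 7.11 to 7.93 on the other SP arrays. Without SP replicate 3 the difference of Clec4a4 was 2.27. Clec4b1 was higher by 0.36 (adjusted p 0.0371 in limma), which did not hold in 8 of 16 alternatives, among them leaving out PBS replicate 2 (0.31, adjusted p 0.0887), with an adjusted p of up to 0.0953. Clec4a3 differed by 1.14 and did not pass (adjusted p 0.0507 in limma), but passed in 7 of 17 alternatives, among them array weights (1.17, adjusted p 0.00479) and leaving out SP replicate 3 (1.46, adjusted p 0.0131). These neighbours are close relatives in sequence, so their values are uncertain where probes match more than 1 of them, which was not tested.

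Of 39 other C-type lectin genes with a row, 7 were called higher and 8 lower in SP, 18 did not pass, and their median difference was -0.01. Olr1, the scavenger receptor LOX-1, was among those called higher (3.46, SE 0.37, adjusted p 0.000166 in limma). Its PBS arrays read 9.19, 7.58, 9.32 and 9.22 and its SP arrays 12.44, 12.28, 12.36 and 12.08. Cd69, an early activation marker of leukocytes, was higher by 2.83 (adjusted p 0.000566 in limma). The mannose receptor gene Mrc1 fell by 2.70 (adjusted p 0.00448 in limma), Cd209f fell by 2.57 (adjusted p 0.000383) and Mgl2, a galactose-type lectin of macrophages, fell by 2.45 (adjusted p 0.000295). The SP arrays read 4.71 to 4.91 for Cd209f and 4.21 to 5.02 for Mgl2, close to the lowest levels measured, such as 4.33 to 4.90 for 3 Y-linked genes, so these falls may be understated.

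**Figure D4:**
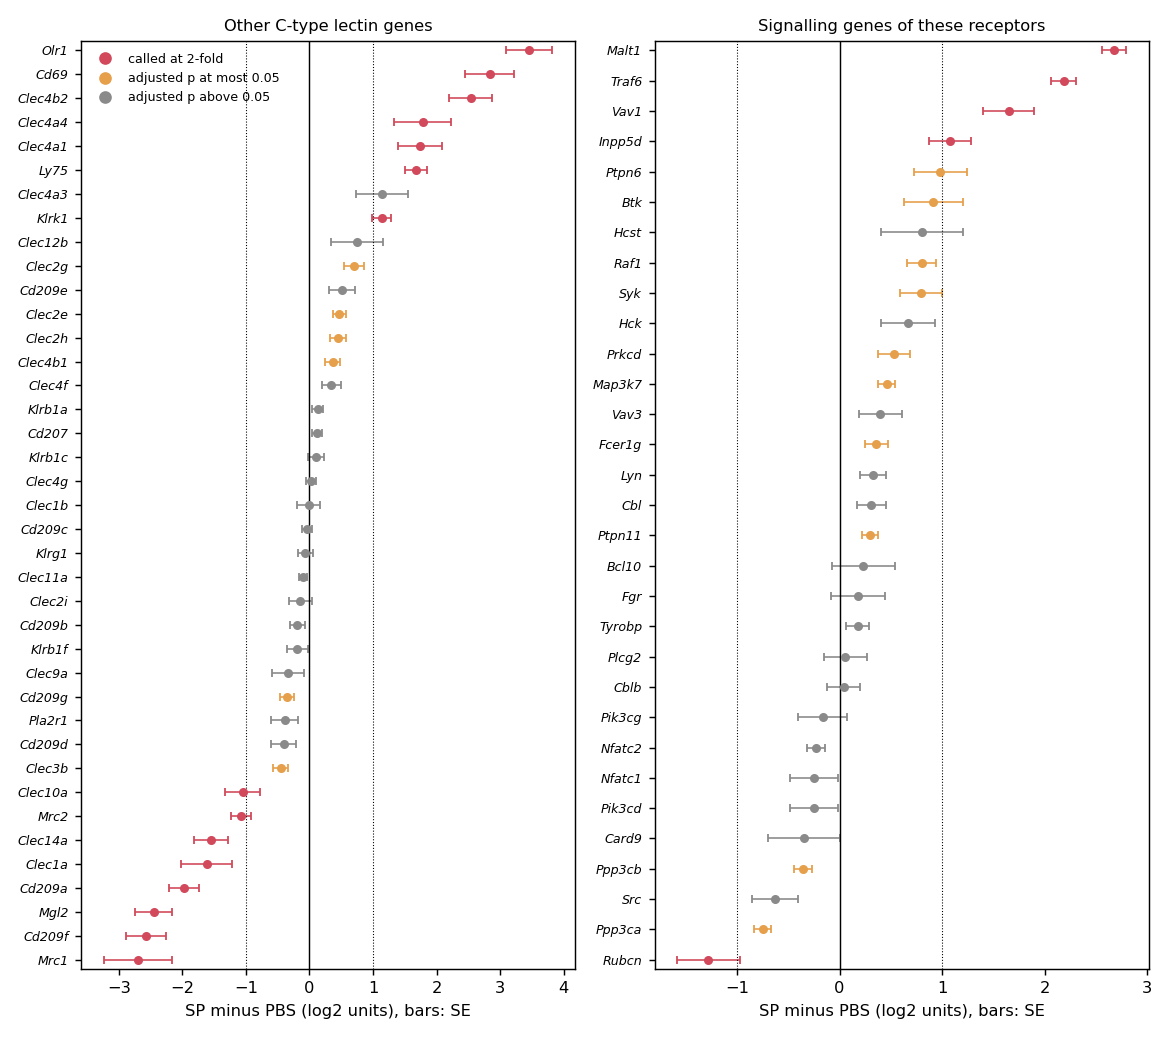
SP minus PBS difference (x axis, log2 units) with its SE for the 39 other C-type lectin genes (left) and 31 genes of adaptors, kinases, the CARD9 complex and phosphatases (right), coloured by call, with dotted lines at 2-fold. On the left Olr1 lies at 3.46 and Mrc1 at -2.70, and on the right Malt1 and Traf6 lie above 2 while Card9 lies at -0.34.

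Of 3 adaptors 1 passed the test. Fcer1g, the Fc receptor gamma chain used by Clec4e, Clec4d and Clec4n, read 13.04, 12.73, 13.24 and 13.14 on the PBS arrays and 13.47, 13.43, 13.34 and 13.35 on the SP arrays. It was higher by 0.36 (SE 0.11, adjusted p 0.0332 in limma), a pass that did not hold in 5 of 17 alternatives, where the adjusted p reached 0.0834. Tyrobp (DAP12), the adaptor of Clec5a, differed by 0.18 (adjusted p 0.214 in limma), and Hcst (DAP10) by 0.80 (adjusted p 0.128 in limma). Both turned on the scaling. With arrays centred on their median Tyrobp was higher by 0.46 (adjusted p 0.0171 in limma) and Hcst by 1.09 (adjusted p 0.0372), so that both passed, while after quantile normalization Tyrobp differed by -0.01.

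Of 13 kinases and lipid signalling genes, 5 passed, all higher in SP, and 1 was called. The called gene was Vav1, a guanine nucleotide exchange factor downstream of Syk, at 1.65 (SE 0.25, adjusted p 0.00106 in limma). Syk itself read 10.91, 10.43, 11.42 and 11.36 on the PBS arrays and 11.93, 11.83, 11.75 and 11.77 on the SP arrays. It was higher in SP by 0.79 (SE 0.21, adjusted p 0.0152 in limma), and its groups did not overlap.

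Of the 3 genes of the CARD9 complex, Malt1 passed and Card9 and Bcl10 did not. Malt1, the paracaspase, read 9.02, 8.72, 9.19 and 9.09 on the PBS arrays and 11.87, 11.63, 11.56 and 11.68 on the SP arrays, and was higher by 2.68 (SE 0.12, adjusted p 3.71e-06 in limma). Card9, the scaffold, read 8.94, 7.98, 9.85 and 9.45 on the PBS arrays and 8.75, 8.85, 8.56 and 8.69 on the SP arrays, a difference of -0.34 (adjusted p 0.424 in limma). Without PBS replicate 2, Card9 was lower in SP by more, -0.70, and passed with an adjusted p of 0.0305 in limma. Bcl10 differed by 0.23 (adjusted p 0.533 in limma), and by -0.07 without PBS replicate 2. Among genes that act next in the pathway, the ubiquitin ligase gene Traf6 was higher by 2.19 (SE 0.13, adjusted p 1.07e-05 in limma) and Map3k7, which encodes the kinase TAK1, by 0.46 (adjusted p 0.00307). Genes for calcineurin subunits fell, Ppp3ca by 0.75 (SE 0.08, adjusted p 0.000178 in limma) and Ppp3cb by 0.36 (adjusted p 0.0108). Of the 9 genes of the complex and the steps after it, 2 were called, both higher. In all, 3 of the 9 passed higher, 2 passed lower and 4 did not pass, with a median difference of -0.23.

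Of 6 phosphatases and other inhibitors, 1 was called higher and 1 lower. Inpp5d, the lipid phosphatase SHIP-1, was higher by 1.08 (SE 0.20, adjusted p 0.00319 in limma), and Rubcn, which can bind CARD9 and limit its signalling, fell by 1.28 (SE 0.30, adjusted p 0.0101). Both passed in every alternative run but were under 2-fold in some, Inpp5d at 0.88 after quantile normalization, 0.89 without PBS replicate 2 and 0.99 without PBS replicate 2 and SP replicate 3 together, and Rubcn at -0.97 without SP replicate 3, at -0.87 without both arrays and just under the threshold with centred arrays. Ptpn6, the phosphatase SHP-1 that inhibitory lectin receptors recruit, was higher by 0.98 (SE 0.26, adjusted p 0.0159 in limma). Over the 31 signalling genes together 4 were called higher and 1 lower, where 6.37% of all rows were called higher and 11.3% lower. In the higher direction 12 passed, against 3 in the lower, where 44.1% of all rows passed and 21.5% passed and were higher. Neither of the genes listed for binding partners passed. Sap130, whose protein Mincle binds when it is released from dying cells, differed by -0.05 (adjusted p 0.686 in limma), and Klrb1b, the receptor for Clr-b, by -0.21 (adjusted p 0.536), and the sign of both turned once arrays were centred on their median.

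Cytokine and enzyme genes that Syk and CARD9 are known to induce were also listed. Many other receptors induce them too, so their values cannot show which receptors acted. Of 9 with a row, 6 were called higher in SP, against 6.37% of all rows. A further 1 passed and was higher, where 21.5% of all rows passed and were higher. None was lower, and the median difference was 2.94. Il1b (0.19, adjusted p 0.242 in limma) and Ptgs2 (0.17, adjusted p 0.616) did not pass. Tnf read 8.59, 7.41, 9.67 and 9.30 on the PBS arrays and 12.73, 12.72, 12.92 and 12.61 on the SP arrays, and was higher by 4.00 (SE 0.43, adjusted p 0.000183 in limma). Il23a, a subunit of interleukin-23, was higher by 3.41 (SE 0.43, adjusted p 0.000425). Il10, an anti-inflammatory cytokine, read 5.19, 4.86, 5.36 and 5.65 against 9.13, 8.09, 12.18 and 9.79, the widest spread among the SP arrays of these genes, and was higher by 4.53 (SE 0.75, adjusted p 0.00175 in limma). Il6 was higher by 4.13 (adjusted p 6.68e-05 in limma), Cxcl1 by 2.94 (adjusted p 0.000133) and Csf2, the growth factor GM-CSF, by 1.53 (adjusted p 0.000138).

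The arrays and the cell label were examined with marker genes. Array medians lay between 6.06 and 6.20 in PBS and between 5.78 and 5.91 in SP, and of the rows called, 63.9% were lower in SP, or 44.4% with every array centred on its median. Ly6g, the antigen used for the isolation, had no row paired with its name. By its methods, the study evaluated purity in samples from mice with pneumonia and gives no purity for PBS samples. On stained cytospins of the pneumonia samples it found nearly all cells to be neutrophils. The few others mostly looked like alveolar macrophages. The study also reports high Ly6G mRNA in all samples. The mean log2 intensity of 10 other neutrophil markers ranged from 12.15 to 12.41 on the PBS arrays and from 11.51 to 12.76 on the SP arrays, and 3 of the 10 passed, all lower in SP. Markers of other cells were present as well, and their part in the receptor results was not tested. All 8 epithelial markers passed, lower in SP (array means 11.57 to 12.18 in PBS and 9.71 to 10.57 in SP), as did all 5 B cell markers (8.10 to 9.07 and 6.03 to 7.37) and 4 of 5 endothelial markers (10.51 to 11.55 and 8.95 to 9.97). Of 8 alveolar macrophage markers 4 were called lower and 1, Chil3, passed in the other direction (0.97, adjusted p 0.0216 in limma), with array means of 8.64 to 9.33 in PBS and 7.77 to 8.30 in SP. Of the dendritic cell markers 1 of 7 was called, higher in SP, as was 1 of 6 T cell markers, and none of 5 natural killer cell and 4 eosinophil markers was. The dendritic cell marker called was Itgae (1.10, adjusted p 0.0174 in limma). The study found its protein, CD103, higher on lung neutrophils in pneumonia by flow cytometry.

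Markers of monocytes and macrophages, cells that also express most of these receptors, moved in part with the arrays that read low for some receptors. Of 7 such markers 2 passed, both higher in SP, and 1 was called, the F4/80 gene Adgre1 (1.27). The other that passed was Ccr2 (0.89, adjusted p 0.00124 in limma). The mean of the 7 was 9.10, 8.20, 8.84 and 8.75 on the PBS arrays and 9.35, 9.32, 8.16 and 9.56 on the SP arrays. PBS replicate 2 and SP replicate 3 were thus the lowest of their groups for the mean of these markers. PBS replicate 2 was also lowest for 6 receptors, and SP replicate 3 for Clec4n and Clec5a. SP replicate 3 was instead the highest SP array for Clec4e (13.29), Clec4d (12.91) and Clec4a2 (9.36). Among the PBS arrays, replicate 2 was also the lowest for the neutrophil (12.15), T cell (5.36), natural killer cell (5.05) and eosinophil (4.72) markers. It was the highest for the epithelial (12.18) and endothelial (11.55) markers. SP replicate 3 was also the lowest SP array for epithelial (9.71), endothelial (8.95), alveolar macrophage (7.77), dendritic cell (6.72) and B cell (6.03) markers. For the neutrophil markers it was the highest SP array (12.76). The median difference of the 7 was 0.13, from -0.30 for C1qc to 1.27 for Adgre1. Over the 8 arrays C1qb read 8.50 to 10.63, Csf1r 9.81 to 11.57, C1qc 6.25 to 8.89 and Cx3cr1 5.98 to 7.42. C1qa read 7.08 to 9.17 and Ccr2 7.61 to 8.84. Of the PBS arrays, replicate 4 was the lowest for C1qa (7.97) and Ccr2 (7.61), and replicate 2 for the other markers. The part of these cells in the receptor differences was not tested. Without both arrays the difference of Clec4n was 3.25, of Clec5a 1.60, of Clec4d 0.60 and of Clec2d 1.04, and all 4 passed.

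**Figure D5:**
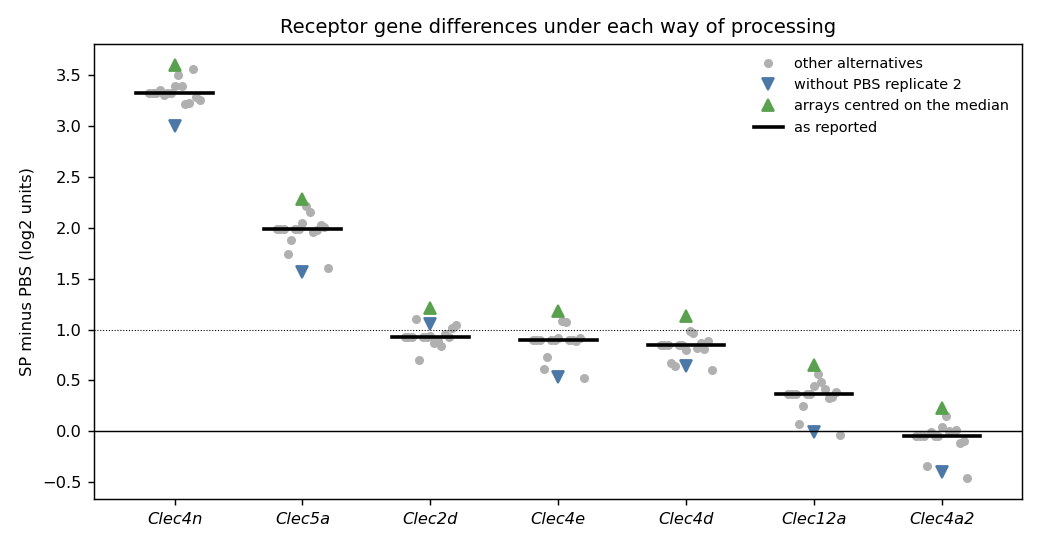
SP minus PBS difference (y axis, log2 units) of each receptor gene as reported (black line) and under 17 alternatives (points), with PBS replicate 2 left out (blue triangles) and arrays centred on their median (green triangles) marked. Clec4n stayed between 3.0 and 3.60 and Clec5a between 1.56 and 2.28, while Clec12a and Clec4a2 lay on both sides of 0.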

How the data were processed

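Neutrophil RNA was profiled on 8 arrays, 4 PBS and 4 SP, grouped by sample title. Per the methods, the authors processed the signals by robust multi-array averaging (background correction, quantile normalization and median polish, with a correction for the sequence and GC content of probes) with custom probe-to-gene mappings, and the deposited values are on a log2 scale. Quantile normalization makes values relative within an array, and the deposited array medians differ between groups. The genome build of the mappings is not given in the sources used here.

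RefSeq identifiers gave a symbol to 19915 of 24625 rows (80.9%). Where a symbol had several rows, the row with the highest mean over the 8 arrays was used. Differences were fitted in limma 3.58.1 (R 4.3.3, lmFit and eBayes, two-sided, no covariates) over all rows, after the fit was tested on simulated data. The number of arrays limits the precision. The study's one-way test was run as an alternative, beside other priors, weights, scalings and filters, a replicate block, and each array left out. The correlation of deviations between same-numbered PBS and SP arrays ran from -0.274 to 0.35, so the numbers were not taken to pair the samples.

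The genes and lists were chosen with earlier results of these data known. Named were the receptors and every adaptor, binding partner and CARD9 complex gene used. Also named were the called genes with the largest differences in each other list, and the 3 nearest profiles of each receptor. Ptpn6, Ppp3cb, Clec4a1, Clec4a3, Clec4a4, Clec4b1, Adgre1, Ccr2, Chil3, Csf1r, C1qa, C1qb, C1qc, Cx3cr1, Itgae, Il1b and Ptgs2 were named after their values were seen. The promoter motifs were picked after the sequences had been read. Promoters were from RefSeq (GRCm38.p6), available for 7 of the 8 receptors. Of the listed monocyte and macrophage markers, 1 is not reported here.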

Additional observations from a re-analysis of the deposited data

Results flagged for a closer look

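No receptor gene had an array that stood apart from the other 3 of its group by Dixon's ratio, the gap to the nearest array divided by the group's range. Against the 95% critical value for 4 arrays, 7 values of the related genes did, of 78 groups examined, where chance gives about 1 in 20.

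Both Olr1 and Cd69 were low on PBS replicate 2, with ratios of 0.926 for Olr1 and 0.964 for Cd69, and Cd69 was high on SP replicate 3, with a ratio of 0.898. Mrc1 was high on PBS replicate 1 (0.971) and on SP replicate 4 (0.897), where it read 8.40 against 5.89 to 6.15 on the other SP arrays. Mgl2 was also high on PBS replicate 1, with a ratio of 0.863. Cxcl1 was high on SP replicate 4, with a ratio of 0.876. The cause of these values was not tested.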

How the results depend on the processing

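Clec4d, Clec4n, Clec5a and Clec2d kept their direction and stayed past the adjusted p threshold in all 17 alternatives, with differences of 0.60 to 1.13 for Clec4d, 3.0 to 3.60 for Clec4n, 1.56 to 2.28 for Clec5a and 0.70 to 1.21 for Clec2d. Clec4e passed in 7 alternatives (robust prior 0.90, centred arrays 1.18, rows below the median left out 0.90, leaving out single arrays 0.53 to 1.08, and PBS replicate 2 and SP replicate 3 left out together, chosen after the values were seen, 0.52), with adjusted p of 0.012 to 0.107 over all 17. Clec4a2 changed sign with centred arrays (0.23) and without single arrays (-0.40 to 0.15), and was -0.46 without both arrays. Clec12a ran from -0.0081 to 0.56 without single arrays and was -0.04 without both. Receptors called at 2-fold numbered 5 with centred arrays, and signalling genes called numbered 9 with centred arrays and 3 without both arrays, against 5. The count over all rows was 4341, and 3872 to 4657 in the alternatives. With the replicate number as a block, which is no known pairing here, 4324 rows were called, Clec4e stayed at 0.90 (adjusted p 0.0629), and no receptor changed its side of the threshold. Sap130 changed sign with centred arrays (0.23) and ran from -0.09 to 0.02 without single arrays, Klrb1b changed sign with centred arrays (0.07) and quantile normalization (0.05) and ran from -0.38 to 0.01 without single arrays, Tyrobp with quantile normalization (-0.01), and Bcl10 with array weights (-0.08), without single arrays (-0.07 to 0.42) and without both arrays (-0.14). The filter on rows below the median gave no value for Cd209f, Mgl2, Clec4a4 and Clec4b1. Apart from the arrays left out, the cause of these changes was not tested.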
